A study of Homo sapiens with 26 samples.

Results

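The libraries described here are 14 single cell-derived cell lines (SCDCLs, called clones below) that expressed SMAD4, the common partner of the receptor-activated SMAD proteins in TGF-beta and BMP signaling, out of 26 sequenced. They were chosen by the deposited TPM (length-normalized transcript abundance) of SMAD4, which had to be 1 or more. SMAD4 lay between 28.1 and 52.2 TPM in these 14 clones and reached at most 0.0440 TPM in the other 12 libraries, so no library was near the threshold. Each clone was grown from 1 cell picked by limiting dilution of the pancreatic ductal adenocarcinoma lines BxPC3 or Panc-1, expanded to a T-25 flask and sequenced once as polyadenylated RNA. Of the 14 clones, 7 carry the label Panc-1 (B8 to B14) and 7 carry the label BxPC3 (B15, B17, B18, B19, B20, B22 and B23). BxPC3 is known to lack SMAD4, so SMAD4 goes against the label of the last 7, and clones are called by library number throughout. All were kept in high-glucose DMEM with serum. The labels name gemcitabine as the treatment of all libraries, whereas the methods describe gemcitabine only in viability assays. No clone has a second library, so a difference between clones cannot be told apart from a difference between their cultures or their RNA preparations. In bulk RNA, fewer cells of a kind and less RNA per cell cannot be told apart either.

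Clones of a carcinoma line share 1 founder line but drift apart. In aneuploid lines whole chromosomes and arms are gained and lost, which moves the expression of many neighboring genes together by a small amount, while single genes are switched on or off, often with methylation of CG dinucleotides at their promoters, and pathways with feedback move their targets as a set. Each of these layers was described by how far genes spread across the 14 clones.

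Variation was measured as the standard deviation (SD) of log2(CPM + 1) across the 14 clones, with CPM as estimated counts relative to the TMM-scaled library total, for the 9955 genes with a mean of 10 CPM or more. The error of the reads came from 30 resampled-read columns that were deposited for each library and that include the uncertainty of assigning reads to similar transcripts. The median gene had an SD of 0.26 against a read spread of 0.0395, and 5775 genes stayed within a 2-fold range of CPM + 1 over all clones. Genes were called variable when the SD was 0.5 or more and at least 2 times the read spread, which held for 941 genes (9.45%), and 185 of them (1.86%) were strongly variable with an SD of 1 or more. These percentages describe the choice of genes and carry no test. A further 27 genes reached an SD of 0.5 without exceeding the read spread 2 times. One of these was CCNA2, the cyclin of S and G2 phase, which ran from 0.000743 CPM in B18 to 48.2 CPM in B22 with an SD of 1.56 but had a read spread of 1.51. Just inside the threshold of 1 were SLC43A3, SLC41A2 and TUBB2B with SDs of 1.00, and just outside were LGR4, AFF3 and CDK15 with SDs of 0.99.

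**Figure D1:**
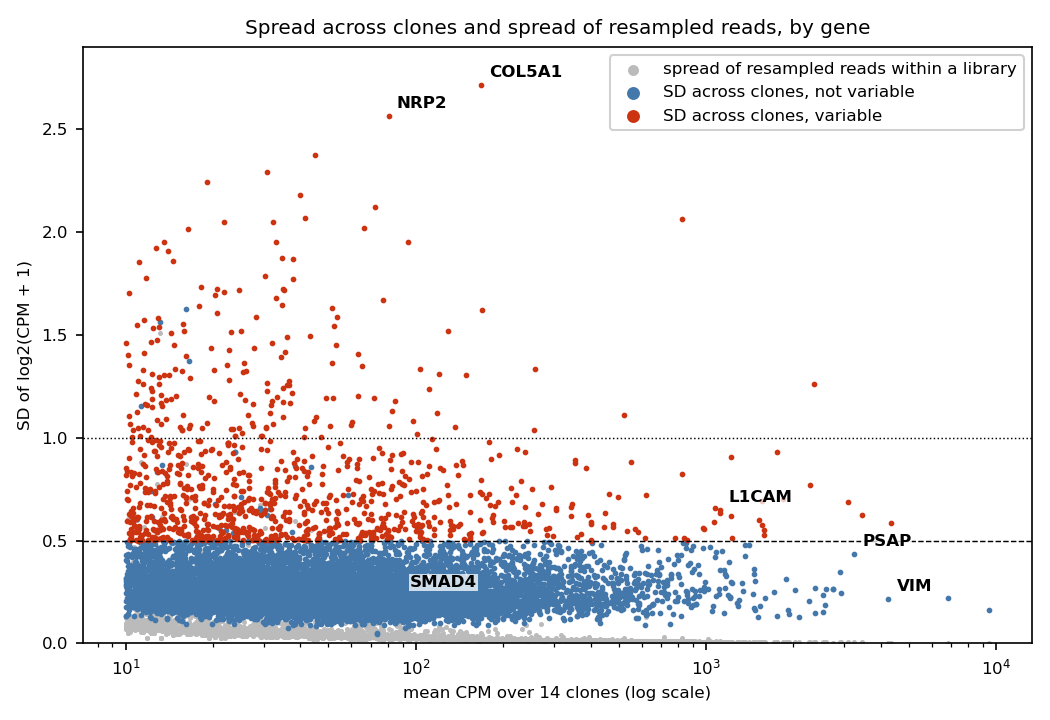
Each tested gene is drawn at its mean CPM over the 14 clones (log axis) and its SD of log2(CPM + 1), in red where it was called variable and in blue otherwise, with the spread of resampled reads of the same gene in grey. The dashed and dotted lines mark an SD of 0.5 and 1, and most grey points lie far under the blue ones, with COL5A1 at the top and VIM and SMAD4 near the median gene.

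Of 4 markers of these cells, SMAD4 chose the clones, the other 3 were high in every clone, and L1CAM alone was variable. VIM, the intermediate filament protein of mesenchymal cells, ranged from 3276 CPM in B14 to 5347 CPM in B9 with a median of 4092, against 1.66 to 82.4 CPM in the libraries without SMAD4. SMAD4 itself ranged from 71.3 CPM in B10 to 133 CPM in B20 around a median of 84.6, with an SD of 0.24. Neither reached the threshold of a variable gene. PSAP, the precursor of the saposins that help to degrade sphingolipids in the lysosome, ranged from 1908 CPM in B22 to 5362 CPM in B14 with an SD of 0.44 and was listed at 0 in all libraries without SMAD4. L1CAM, a cell adhesion molecule of neurons and of invasive carcinoma cells, ranged from 451 CPM in B23 and 459 CPM in B18 to 1929 CPM in B8 with a median of 1086 and an SD of 0.65. Even the lowest clone lay far above the 4.18 CPM that the libraries without SMAD4 reached at most. Among variable genes, VSIR, an immune checkpoint receptor, had the pattern most like that of L1CAM over the 14 clones (Pearson's r = 0.90, Spearman's rho = 0.85), followed by the TGF-beta co-receptor TGFBR3 (r = 0.88). For PSAP the nearest was MMP14, a membrane-bound matrix metalloproteinase (r = 0.75), and for VIM it was CAVIN3, a component of caveolae (r = 0.82). All these values share the 14 libraries and describe them only.

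The epithelial list, which tells a carcinoma line from stroma, summed to 4773 to 11745 CPM and was led by KRT8, and markers of other cells were low. Of 8 fibroblast markers, 4 reached 1 CPM in any clone and DCN, FAP, LUM and COL1A2 did not, and the sum was 7.15 to 94.4 CPM, led by COL1A1. Among 6 endothelial markers PECAM1 alone reached 1 CPM, and the sum was 0.387 to 3.87 CPM. Among 7 leukocyte markers PTPRC, LYZ, CD3E and HLA-DRA stayed under 1 CPM in every clone, and the sum of 50.8 to 159 CPM was led by the lysosomal protein CD68. Totals were 27035724 to 32601392 estimated counts per library. The most alike clones, B10 and B17, differed by a root mean square of 0.36 in log2(CPM + 1) over genes against 0.0940 from the read spread, and the median over the 91 pairs was 0.52. B18, B22 and B23 stood apart from the rest. Their root mean square deviation from the median clone was 0.50, 0.48 and 0.45, against 0.27 (B10) to 0.40 (B20) in the other clones, and without these 3 clones 701 genes were variable.

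The 5 genes with the largest spread ran from near absence to high expression. COL5A1, a fibrillar collagen chain, had the largest SD of all at 2.71. Its CPM was 490 in B22, 442 in B8, 432 in B17 and 402 in B9, 179 in B10 and 165 in B11, then 84.1 in B13, 55.7 in B15, 42.5 in B23, 30 in B19, 15.8 in B14, 10.4 in B12, 4.19 in B20 and 7.74e-05 in B18. The order of the clones is graded, and neither label sits on one side. NRP2, a co-receptor for semaphorins and VEGF-C, had an SD of 2.56 and ranged from 0.335 CPM in B23 and 1.54 CPM in B20 to 199 CPM in B13 with a median of 54.3. FLRT2, a membrane protein that guides migrating cells, had an SD of 2.29 and ranged from 0.573 CPM in B22 to 142 CPM in B20. CES1, a carboxylesterase that hydrolyses ester drugs and lipids, ranged from 0.354 CPM in B11 to 297 CPM in B18 with an SD of 2.37. CES1 has a close pseudogene copy and its level is uncertain to that extent. SLFN11, a nuclear protein that blocks stressed replication forks and is known as a determinant of response to DNA-damaging drugs, had an SD of 2.24. It lay at 81.7 CPM in B20, 61.9 in B8 and 49.7 in B17, between 6.54 and 20 in B9, B10, B14, B19 and B23, at 1.68 in B12, 1.52 in B22 and 1.04 in B15, and at 0.307 in B13, 0.0213 in B11 and 0.0212 in B18. The 12 libraries without SMAD4 held 49.4 to 71.3 CPM of it, so SLFN11 was near or above that level in 3 clones and far under it in 11.

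**Figure D2:**
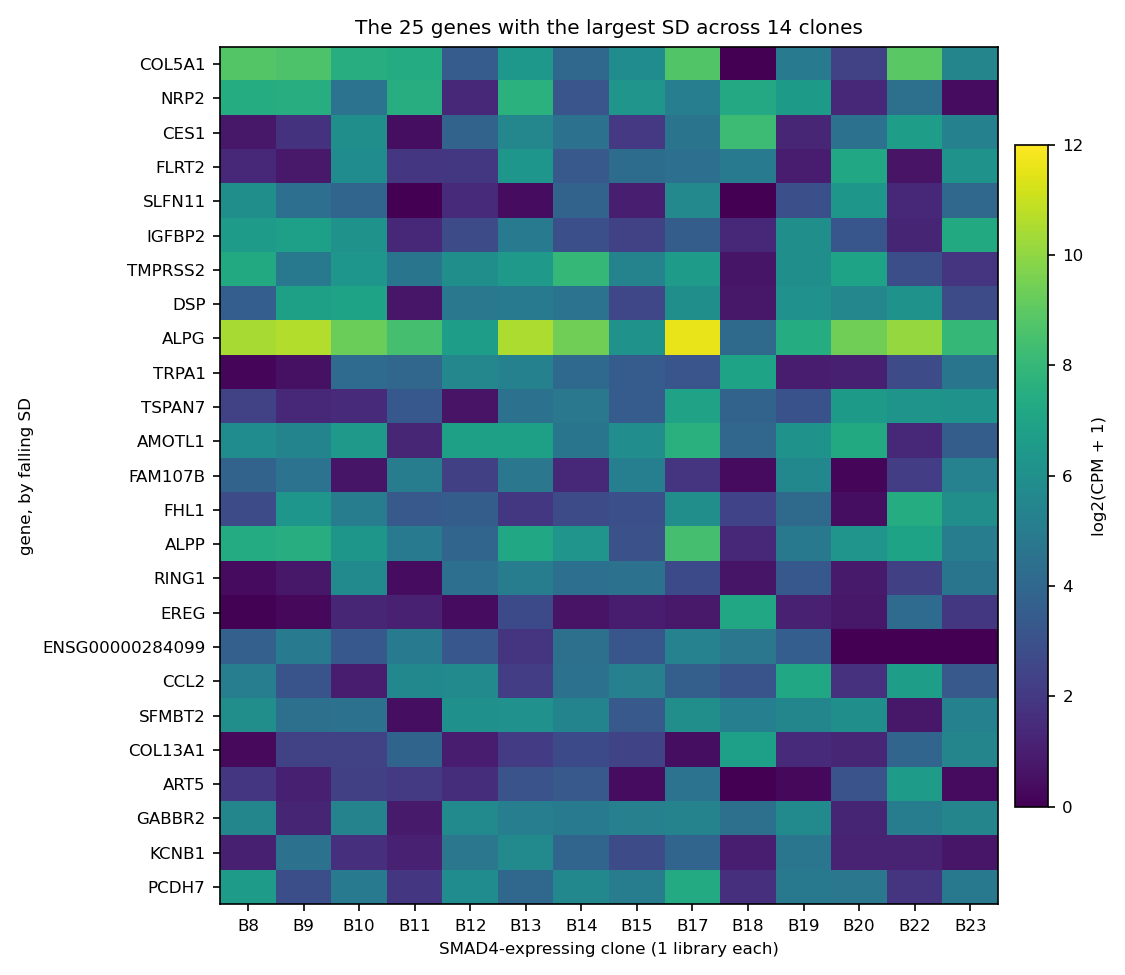
Log2(CPM + 1) of the 25 genes with the largest SD (rows, by falling SD) in each of the 14 clones (columns), 1 library each, from dark (absent) to yellow. Most rows hold several dark and several bright clones, whereas EREG is bright in B18 alone.

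Other genes of this class fall into known functions. Alkaline phosphatases of the placental type were represented by ALPG, from 16.5 CPM in B18 to 3060 CPM in B17 (SD 2.06), and ALPP, from 1.58 CPM in B18 to 354 CPM in B17 (SD 1.95). The pair is nearly identical in sequence, so reads can be split between them and their shared order is no independent evidence. Junction proteins were represented by DSP, the desmosomal plaque protein desmoplakin, from 0.674 CPM in B11 and 0.703 CPM in B18 to 122 CPM in B10 (SD 2.07). TMPRSS2, a serine protease of epithelial surfaces, was at 0.592 CPM in B18, 2.62 in B23 and 6.37 in B22 and at 250 CPM in B14 (SD 2.12). TRPA1, an irritant-gated cation channel, ranged from 0.117 CPM in B8 to 122 CPM in B18 (SD 2.05), and the GABA-B receptor subunit GABBR2 was under 1.5 CPM in B9, B11 and B20 and at 20.4 to 51.3 CPM in the other 11 clones (SD 1.79). GABBR2 thus left a gap between 3 low clones and the rest. The secreted proteins IGFBP2, from 1.37 CPM in B22 to 154 CPM in B23 (SD 2.18), and the monocyte chemokine CCL2, from 0.937 CPM in B10 to 144 CPM in B19 (SD 1.87), were graded instead. RING1, at an SD of 1.95, had a read spread of 0.46, and FHL1 one of 0.39, so their levels are less certain than those of the genes above. Of the 941 variable genes 139 had a median under 1 CPM in the libraries without SMAD4. The same count was not made over all tested genes, so it is no trait of variable genes.

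A small share of genes was off in some clones and on in others. On and off was taken as under 1 CPM in the lowest clone and 10 CPM or more in the highest, which held for 63 genes (0.633%). Of them 57 were strongly variable, which so wide a range favors. VASN and CCNA2 count among the 63 but were not variable, with read spreads of 0.87 and 1.51. CCNA2 counts as off in B18 and B10, and VASN in B12 and B23. Of the 63, 42 genes were off in a single clone, 10 in 2 and 7 in 3, an order that the filter on a mean of 10 CPM favors, since a gene off in many clones passed it only with high levels in the rest. B18 lacked 16 of the 63, B11 13, B20 12 and B22 and B23 11 each, against 2 each in B13 and B14. MGMT, the enzyme that removes alkyl groups from guanine in DNA and a classic target of promoter methylation in tumors, was at 0.209 CPM in B20 and 2.29 CPM in B22 and reached 23.7 CPM in B11 (SD 1.31). The promoters of COL5A1, NRP2, FLRT2 and SLFN11, which with CES1 are the on and off genes with the largest SD, are shown because CG dinucleotides are where such silencing is known to act, with every CG in capitals. They were taken from RefSeq (GRCh38.p14) and run from 250 bases before to 50 bases after the annotated start: COL5A1 on the plus strand (chr9:134641553-134641852), NRP2 on the plus strand (chr2:205682251-205682550), FLRT2 on the plus strand (chr14:85529894-85530193) and SLFN11 on the minus strand (chr17:35373572-35373871).
COL5A1: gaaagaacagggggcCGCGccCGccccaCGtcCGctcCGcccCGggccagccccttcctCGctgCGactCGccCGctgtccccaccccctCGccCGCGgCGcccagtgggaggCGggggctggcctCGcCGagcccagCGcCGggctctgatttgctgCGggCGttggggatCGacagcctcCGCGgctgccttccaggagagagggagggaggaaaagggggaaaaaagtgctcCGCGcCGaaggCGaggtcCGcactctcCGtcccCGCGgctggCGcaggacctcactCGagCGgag
NRP2: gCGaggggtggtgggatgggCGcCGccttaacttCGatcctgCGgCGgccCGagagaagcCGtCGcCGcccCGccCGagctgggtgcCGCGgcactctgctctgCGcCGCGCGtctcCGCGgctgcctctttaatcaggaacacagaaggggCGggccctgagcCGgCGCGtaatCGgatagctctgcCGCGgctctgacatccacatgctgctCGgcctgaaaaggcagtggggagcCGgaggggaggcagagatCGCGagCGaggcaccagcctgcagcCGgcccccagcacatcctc
FLRT2: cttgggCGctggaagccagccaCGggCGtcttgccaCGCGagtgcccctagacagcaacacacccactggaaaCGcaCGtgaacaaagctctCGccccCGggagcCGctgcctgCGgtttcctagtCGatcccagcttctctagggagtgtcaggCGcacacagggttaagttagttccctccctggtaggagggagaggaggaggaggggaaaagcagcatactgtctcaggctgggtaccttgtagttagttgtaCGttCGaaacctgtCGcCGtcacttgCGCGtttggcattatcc
SLFN11: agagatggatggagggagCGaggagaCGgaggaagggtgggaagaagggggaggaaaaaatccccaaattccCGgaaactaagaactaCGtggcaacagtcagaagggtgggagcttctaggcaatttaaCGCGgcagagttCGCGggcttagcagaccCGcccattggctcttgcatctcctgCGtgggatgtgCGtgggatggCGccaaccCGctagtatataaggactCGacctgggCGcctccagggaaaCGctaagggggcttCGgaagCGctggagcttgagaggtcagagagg
COL5A1 holds 36 CG and NRP2 33, more than 87.5% and 83.0% of the 27195 promoters in the RefSeq table, and FLRT2 holds 19 and SLFN11 18, more than 56.9% and 55.4%. Both of the latter lie under 21, the lower quartile of tested genes. The median promoter held 28 CG over 7849 tested genes, 26 over 49 on and off genes and 23.5 over the 138 strongly variable genes that the table matched. A promoter of 15 CG or more was found for 88.3% of tested genes, 81.6% of on and off genes and 72.5% of strongly variable genes. Methylation was not measured in these samples.

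Genes out of place in 1 clone were few. A gene was high in a single clone when its highest log2(CPM + 1) lay 2 or more above the second highest, which held for 8 genes (0.0804%), and low in a single clone when the lowest lay 2 or more under the second lowest, which held for 17 genes (0.171%). The filter on the mean sets this balance, as 28 genes were high and 18 low in a single clone when the highest clone, in place of the mean, had to reach 10 CPM. EREG, an EGF receptor ligand, was at 145 CPM in B18, at 17.4 CPM in B22 and at 5.39 CPM or less in the other clones, so it passed the filter through B18. B9 held the singular levels of NIBAN1, a stress-induced protein, at 91.9 CPM against 11.8 in the next clone, and of BCAT1, which starts the breakdown of branched-chain amino acids, at 128 CPM against 26.1. SPARC, a collagen-binding matrix protein, was at 474 CPM in B11 against 75.6 in the next clone and 7.97 to 64.9 in the rest. ART5, an ADP-ribosyltransferase family member, was at 95.6 CPM in B22 against 22.6. The other 3 were KLHL9, KHSRPP1 and the long noncoding RNA ENSG00000264545, all on the short arm of chromosome 9 in B23. Like EREG, the genes NIBAN1, BCAT1, ART5 and ENSG00000264545 passed the filter only through their high clone. Their medians were 8.17, 4.30, 2.95 and 9.22 CPM. The losses gathered in B18 with 7 genes and in B22 with 4.

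A pair of the genes low in B18 lay side by side. HAPLN3, which links hyaluronan to proteoglycans, was at 2.55 CPM in B18 and at 77.2 to 376 CPM in the other 13 clones, a gap of 4.46 on the log2 scale to the second lowest. MFGE8, a secreted bridge between phosphatidylserine and integrins, was at 139 CPM in B18 and at 1002 to 4874 CPM elsewhere, a gap of 2.84. The genes are neighbors on the minus strand of chromosome 15 (GRCh38, HAPLN3 at chr15:88877294-88895597 and MFGE8 at chr15:88898683-88913468), and both promoters are shown with CG in capitals to set beside the genes above, HAPLN3 at chr15:88895495-88895794 with 15 CG and MFGE8 at chr15:88913330-88913629 with 30.
HAPLN3: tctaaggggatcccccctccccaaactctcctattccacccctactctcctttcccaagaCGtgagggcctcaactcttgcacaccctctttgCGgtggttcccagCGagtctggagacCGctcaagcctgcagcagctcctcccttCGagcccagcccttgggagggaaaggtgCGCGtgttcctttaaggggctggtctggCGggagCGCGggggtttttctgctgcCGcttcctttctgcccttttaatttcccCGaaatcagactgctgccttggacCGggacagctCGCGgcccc
MFGE8: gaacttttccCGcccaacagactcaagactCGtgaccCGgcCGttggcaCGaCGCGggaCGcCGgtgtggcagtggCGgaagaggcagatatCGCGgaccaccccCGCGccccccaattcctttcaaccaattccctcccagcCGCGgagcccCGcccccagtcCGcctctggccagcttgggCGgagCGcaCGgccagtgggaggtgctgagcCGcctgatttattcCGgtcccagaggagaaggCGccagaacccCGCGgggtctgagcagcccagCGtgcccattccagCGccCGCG
B18 also stood alone in low COL5A1, SEMA3F (9.86 CPM against 54.3 or more), GPR176 (1.5 against 12.6 or more), TINAGL1 (1.46 against 9.57 or more) and NEURL1B (0.809 against 6.80 or more). In B22 the largest gap belonged to PAX2, a transcription factor of kidney and Mullerian duct development, at 1.44 CPM against 44.3 to 133 CPM. The others in B22 were COL11A1, a fibrillar collagen chain, at 4.03 CPM against 27.6 to 315, SYBU, a syntaxin-binding protein, at 1.10 CPM against 14.8 or more, and FADS2, the delta-6 fatty acid desaturase, at 47.1 CPM against 225 to 940. B23 was low in GNAO1, a G protein subunit of neurons, at 1.21 CPM against 18.7 or more, and in FRMD3 at 0.299 CPM against 7.46 or more. Single losses were TRHDE in B15, GDA in B10, MAP7D2 in B20 and ENSG00000144785 in B11.

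Many variable genes moved together. Average linkage on 1 minus Pearson's r over the 14 clones, cut at a height of 0.4, placed 531 of 940 variable genes in 33 groups of 8 or more. Median absolute r over all pairs of variable genes was 0.26, and the 90th percentile was 0.57, against a median r of 0.67 to 0.89 inside the groups, which the clustering itself sets. The profile of many groups rested on 1 or 2 clones, so r without the most extreme clone is given beside each median r.

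**Figure D3:**
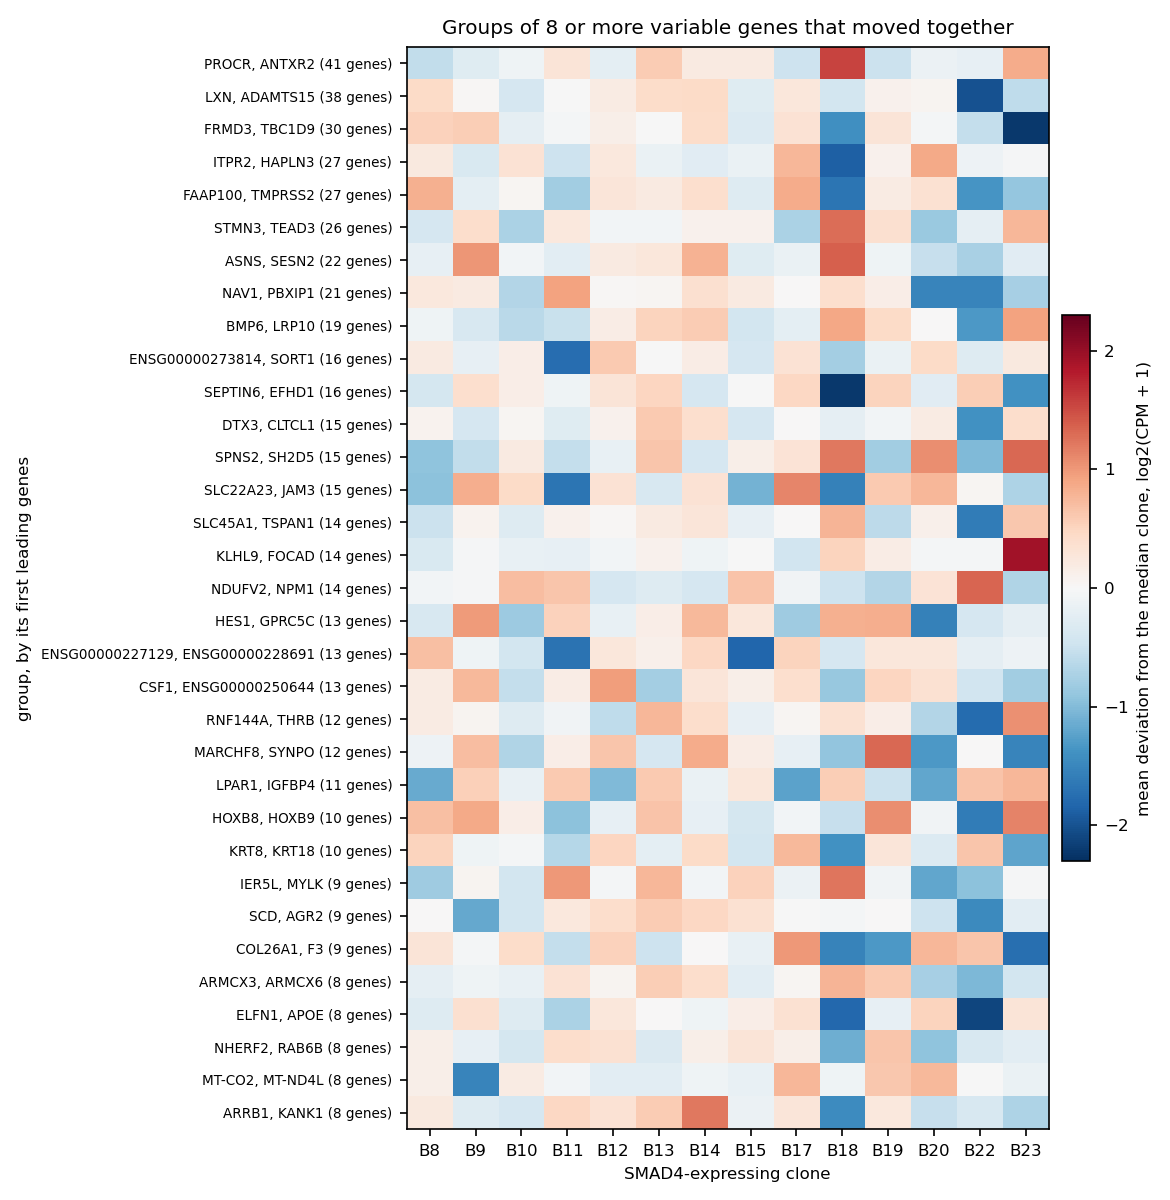
Mean deviation from the median clone in log2(CPM + 1) for each of the 33 groups (rows, labelled by 2 leading genes and the number of genes) in the 14 clones (columns), red above and blue under the median. The columns of B18, B22 and B23 hold most of the deep colors, and single dark cells mark groups that rest on 1 clone, such as the KLHL9 group in B23.

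The largest group of 41 genes was high in B18 and B23, with mean deviations of 1.55 and 0.86, and low in B8 at -0.57 (median r = 0.71, 0.55 without B18). It held the endothelial protein C receptor PROCR and the anthrax toxin receptor ANTXR2 as leading genes, the ERK phosphatases DUSP5 and DUSP6, the ERK feedback inhibitor SPRY4, the Wnt antagonists DKK1 and SFRP1, the ecto-nucleotidase NT5E and the collagen receptor subunit ITGA2. SPRY4 was at 181 CPM in B18 and 120 CPM in B13 against a median of 50 and a lowest value of 31.1 CPM in B8. NT5E was at 1082 CPM in B18, 635 in B13 and 625 in B23 against a median of 304. DUSP6 was highest in B23 at 19.9 CPM and B18 at 17.9 CPM, with a median of 8.29. In the list of immediate early genes and ERK output 6 of 17 tested members were variable, with a median SD of 0.41, against 9.45% and 0.26 over all tested genes.

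A group of 22 genes was led by ASNS, asparagine synthetase, and was high in B18 (1.37), B9 (1.02) and B14 and low in B22 (-0.75). Unnamed identifiers counted among the 22 repeated the values of SESN2 and PCK2, which raises the mean r of these genes to the group. The group included SESN2, a leucine sensor that restrains mTORC1, and CHAC1, which degrades glutathione. It also held the pseudokinase TRIB3, the mitochondrial PEP carboxykinase PCK2, the stress gene DDIT4 and the angiogenic factor VEGFA (median r = 0.74, 0.66 without B18). These are largely known targets of ATF4, the transcription factor of the integrated stress response. ASNS was at 302 CPM in B9, 291 in B18 and 243 in B14, against a median of 132 and a lowest value of 78.3 CPM in B20. CHAC1 was at 59.8 CPM in B18, 45.2 in B9 and 33.3 in B14, with a median of 17.8 and 6.58 CPM in B20. The same clones were high in both genes and B20 was lowest in both, which the choice of both from 1 group favors. Of the 22 tested members of the list of amino acid and ER stress genes 11 were variable (median SD 0.51), and 17 of the 22 lay 0.5 or more above the median clone in B18, 13 in B9 and 11 in B14, whereas 11 lay 0.5 or more under it in B22 and 9 in B20. Over all tested genes 9.45% were variable, with a median SD of 0.26. The shares of all tested genes 0.5 or more above the median clone were 8.01% in B18, 5.79% in B9 and 6.17% in B14. The shares that far under it were 12% in B22 and 7.15% in B20. PHGDH, which starts serine synthesis, had the largest SD of the list at 1.06, from 21.3 CPM in B15 to 315 CPM in B9. ATF4 acts at the amino acid response element TGATGNAA, whose letters were searched on both strands of the promoters and do not overlap themselves. They were found in 2 of the 15 promoters of this group that the table holds (13.3%), those of ASNS and CHAC1, and in 1.54% of tested genes and 3.67% of all promoters. Both promoters are shown with the match in capitals, CHAC1 on the plus strand (chr15:40953221-40953520) with the match on the opposite strand, and ASNS on the minus strand (chr7:97872359-97872658). A match is a run of letters and no measured binding site. Other motifs were counted in the same 15 promoters. The E-box CAGGTG was found in 4 of them (26.7%, against 16.9% of tested genes). AP-1 (TGANTCA) and CRE (TGACGTCA) were found in 0, against 3.82% and 3.49% of tested genes. Whether any of these shares differ was not tested.
CHAC1: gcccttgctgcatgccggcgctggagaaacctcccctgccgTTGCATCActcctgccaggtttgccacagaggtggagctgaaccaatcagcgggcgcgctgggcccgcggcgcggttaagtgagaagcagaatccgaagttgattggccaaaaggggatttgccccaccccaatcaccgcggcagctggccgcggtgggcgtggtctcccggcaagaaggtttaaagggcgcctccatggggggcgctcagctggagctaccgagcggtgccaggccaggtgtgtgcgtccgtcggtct
ASNS: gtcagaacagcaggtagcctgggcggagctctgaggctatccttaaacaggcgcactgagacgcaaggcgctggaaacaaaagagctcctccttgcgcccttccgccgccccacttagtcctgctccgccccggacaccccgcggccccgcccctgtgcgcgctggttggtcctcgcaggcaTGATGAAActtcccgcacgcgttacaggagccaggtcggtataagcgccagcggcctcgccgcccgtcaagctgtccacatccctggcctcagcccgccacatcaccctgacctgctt

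Lipid genes marked B22. A group of 38 genes was low there with a mean deviation of -2.0, against -0.59 in B23 and 0.45 in B8, the highest (median r = 0.67, but 0.36 without B22). Beside PAX2 and FADS2 it held FADS1, the sterol reductases DHCR7 and TM7SF2, the sterol transporter STARD4, the hedgehog ligand SHH, the hyaluronan synthase HAS2 and the nucleoside transporter SLC29A2. Of the 38 genes 8 lay on chromosome 11, with FADS1, FADS2, DHCR7, TM7SF2 and SLC29A2 among them, against 583 of 9527 tested genes with a position. A stretch of 41 genes on that chromosome was lowered in B22 (chr11:62761565-64934475, median deviation -0.44). A link between this stretch and the lipid genes was not tested. DHCR7, the last enzyme of cholesterol synthesis, was at 143 CPM in B22 and at 268 to 692 CPM in the other clones. STARD4 was at 1.85 CPM in B22 and at 10.2 to 73.7 CPM elsewhere. INSIG1, which holds the sterol sensor SCAP in the endoplasmic reticulum, was at 42.6 CPM in B22 against 76.4 to 188. All 3 sterol genes had B22 as their lowest clone, but they were taken from groups whose lowest clone was B22. Across the 23 tested genes of cholesterol synthesis and uptake 18 lay 0.5 or more under the median clone in B22 and 12 did in B9. Their median deviations were -0.84 and -0.50, and 12% and 5.53% of all tested genes lay that far under it in these clones. Of the 23, 5 were variable (STARD4, DHCR7, INSIG1, MSMO1 and HMGCS1), against 9.45% of all tested genes. Also lowest in B22, with B18 next, was APOE, the lipid carrier of chylomicron remnants, at 23.1 and 35 CPM against 93.4 to 475 CPM in the other clones.

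Epithelial genes varied among clones that all held high VIM. Of 14 tested epithelial genes 11 were variable, with a median SD of 0.59, against 9.45% and 0.26 over all tested genes. In B22 9 of the 14 lay 0.5 or more under the median clone, and 7 each did in B18 and B23. The shares of all tested genes were 12%, 10.2% and 6.97%. KRT8 and its partner KRT18, keratins of simple epithelium, shared a group of 10 genes that was low in B18 (-1.39) and B23 (-1.21), with a median r of 0.70 (0.65 without B18). KRT8 was at 998 CPM in B18 and 1307 in B23 and at 1877 to 5157 CPM elsewhere. KRT18 was at 702 CPM in B18 and 796 in B23 and at 865 to 2441 CPM elsewhere. These clones were also lowest in KRT19, at 471 CPM in B23 and 539 CPM in B18 against a median of 1160. KRT19 belonged with L1CAM, TGFBR3 and GNAO1 to a group of 30 genes that was low in B23 (-2.21) and B18 (-1.40), with a median r of 0.70 (0.54 without B23). CLDN4, a tight junction protein, went the other way and was highest in B18 at 625 CPM against a median of 238. A group of 27 genes with TMPRSS2, the protease inhibitor SPINT1, the tight junction protein CLDN7 and the sodium channel subunit SCNN1A was low in B18 (-1.68), B22 (-1.35) and B23 and high in B17 (0.85) and B8 (0.81), with a median r of 0.67 (0.60 without B18). DSP shared a different group of 15 genes with EPCAM and ERBB2 that was low in B11 (-1.69) and B18 (-1.56), with a median r of 0.71 (0.70 without B11), so the members of the list did not follow a common order.

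Matrix and mesenchymal genes had the largest median SD of the gene lists with 5 or more tested members. Of 15 tested collagen, laminin and protease genes 12 were variable and 7 strongly so, with a median SD of 0.79. Of 18 tested mesenchymal genes 13 were variable, with a median SD of 0.70. Over all tested genes 9.45% were variable and 1.86% strongly so, and the median SD was 0.26. The list of matrix genes leaves out COL5A1, which stands on the mesenchymal list. COL13A1, a transmembrane collagen, ranged from 0.232 CPM in B8 to 108 CPM in B18, with 42.4 CPM in B23 and 14.1 CPM or less in the others (SD 1.86). Its median was 3.95 CPM, and it passed the filter on the mean only through B18. THBS1, the matrix protein thrombospondin-1, was at 133 CPM in B22 against 3.70 to 39.8 CPM elsewhere (SD 1.33), and TIMP2, an inhibitor of metalloproteinases, was highest in B23 at 382 CPM and lowest in B8 at 28.3 CPM (SD 1.05). CDH2, N-cadherin, was at 409 CPM in B20, 132 in B11 and 130 in B15 and as low as 8.29 CPM in B9 (SD 1.67). Thus B20, B11 and B15 were high in N-cadherin, whereas VIM varied little between the same clones. In the TGF-beta pathway 6 of 20 tested genes were variable, with a median SD of 0.37, against 9.45% and 0.26 over all tested genes. The ligand TGFB2 was lowest in B18 at 24.4 CPM and B23 at 27.6 CPM against a median of 89.6 and a highest value of 151 CPM. TGFBR3, which presents TGF-beta to its receptors, was lowest in the same clones at 1.92 and 3.06 CPM against a median of 18.1. The type 2 receptor TGFBR2 was highest in them, at 174 CPM in B23 and 142 CPM in B18 against a median of 80.1. In B18 and B23 these 2 genes were therefore at the low end and TGFBR2 was at the high end. LTBP1 and LTBP2 belonged to a group high in B23 (0.92) and B18 (0.90), and SMAD6 to a group lowest in B18 (-1.12). TGFBR2 lies on chromosome 3, where a stretch of 41 genes was raised in B23 (chr3:15254353-37183689, median deviation 0.55). Whether this stretch bears on TGFBR2 was not tested.

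Shifts shared by neighbors along a chromosome were a separate layer. Deviations from the median clone were ordered along the genome for 9527 genes with a position, giving 133378 gene and clone pairs, of which 0.859% lay 1 or more above and 1.23% lay 1 or more under the median on the log2 scale. Runs of 3 or more consecutive tested genes past that size in the same direction numbered 16, in 7 clones. The longest by far were 17 genes on the short arm of chromosome 9 in B23 (chr9:6720863-26947242, from KDM4C to PLAA, median deviation 1.47), next to 4 further genes from RIC1 to RANBP6. RPS6, a ribosomal protein, was at 851 CPM in B23 and at 259 to 396 CPM in the other 13 clones. FOCAD, which stabilizes the SKI complex, was at 60 CPM in B23 and at 10.6 to 20.2 CPM in the others, and KLHL9, a ubiquitin ligase adaptor, was at 101 CPM against 16 to 22.3. The height of the shift was unequal along the run, smallest at KDM4C with 23.5 CPM against 8.25 to 13.2 CPM. B23 also held 4 neighboring genes on chromosome 3 (chr3:32238679-32570858, CMTM8, CMTM7, CMTM6 and DYNC1LI1, median 1.27), where CMTM6, which protects PD-L1 from degradation, was at 564 CPM against 169 to 270.

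Of the remaining runs, 2 on chromosome 18 in B22 were gains and the rest were losses. In B11, 4 genes from ABCC4 to DNAJC3 (chr13:95019835-95794988, median -1.87), 4 from NALCN to TEX30 and 3 from ATP7B to NEK3 lay on chromosome 13. ABCC4, an exporter of cyclic nucleotides and nucleoside drugs, was at 48.9 CPM in B11 and at 132 to 354 CPM in the other clones. DNAJC3, an ER chaperone, was at 29.8 CPM against 45.9 to 104. In B22, the imprinted neighbors SGCE and PEG10 with CASD1 and PON2 on chromosome 7 (median -1.32) and the metallothioneins MT2A, MT1E and MT1A with a noncoding neighbor on chromosome 16 (median -1.30) were low. MT2A was at 175 CPM in B22, next to 203 in B20, and reached 728 CPM in B18. Metallothionein genes are close in sequence, so their shared deviation is partly uncertain. PEG10 was at 54.5 CPM in B22 and at 107 to 476 CPM elsewhere. F2R and F2RL1, the thrombin and trypsin receptors, were low with POC5 in B19 on chromosome 5 (median -1.42), with F2RL1 at 188 CPM against 388 to 865. B11 was low in BACE2, MX2 and TMPRSS2 on chromosome 21, where BACE2 was at 2.74 CPM in B11, 2.81 in B23 and 5.41 in B15 and at 19 to 94.3 CPM in the others.

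**Figure D4:**
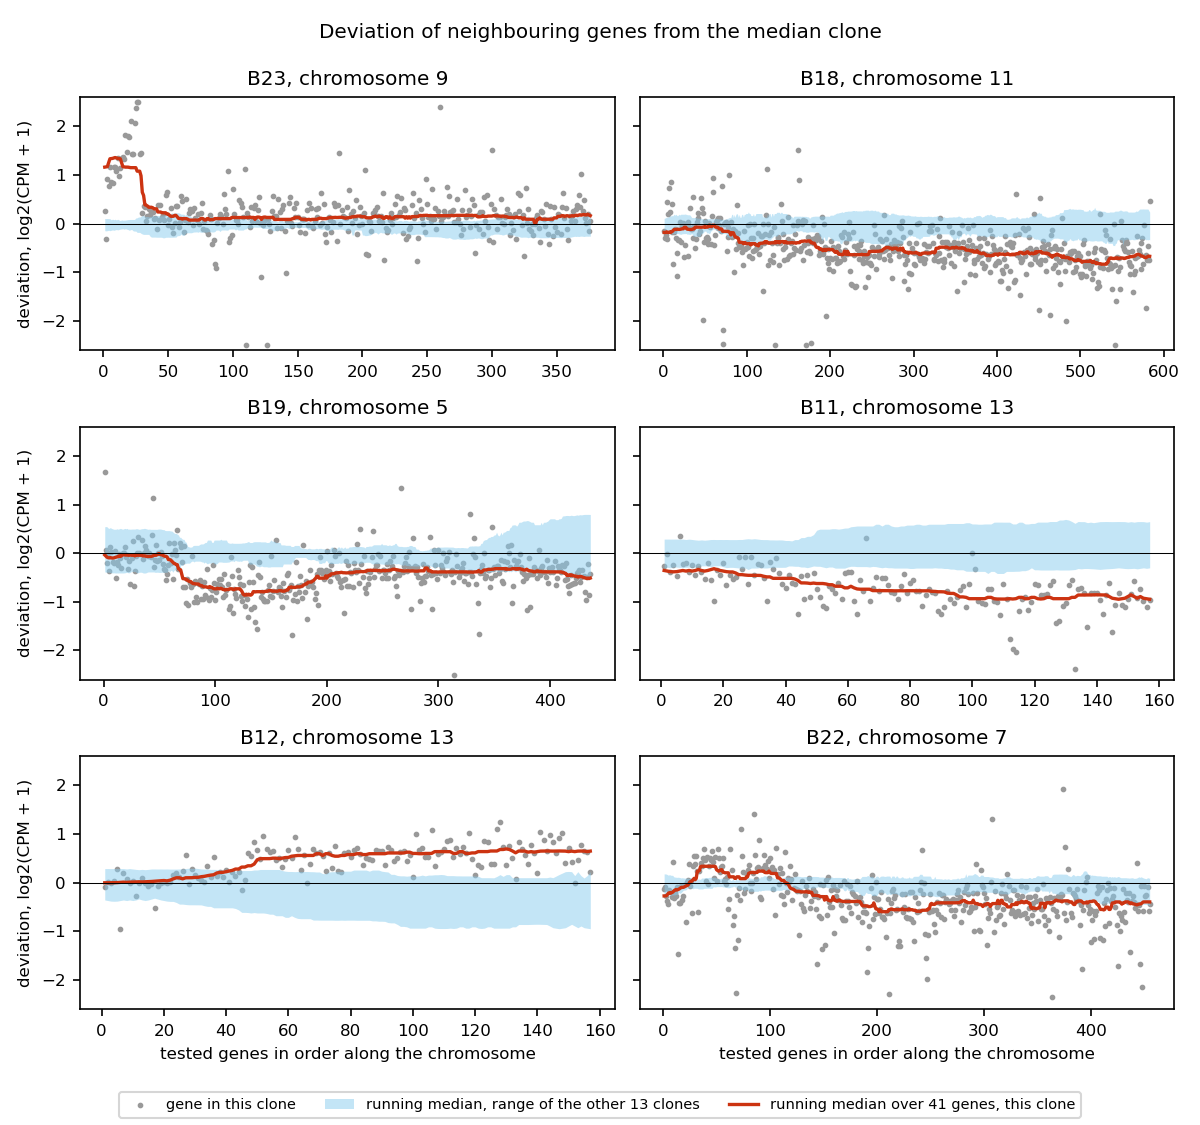
Deviation from the median clone in log2(CPM + 1) of each tested gene (grey points, drawn at 2.5 where larger) in order along 6 chromosomes in a named clone, with the running median over 41 genes in red and the range of the running medians of the other 13 clones in light blue. The raised start of chromosome 9 in B23 and the lowered stretches of chromosomes 11, 5, 13 and 7 leave the range of the other clones, and B12 and B11 sit on opposite sides on chromosome 13.

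Smaller shifts covered stretches of 41 genes up to whole chromosomes. The running median over 41 genes reached 0.3 or more in size in 51 of the 322 pairs of a clone and a chromosome, in 13 of the 14 clones, B9 being the exception. B18 had 15.2% of its placed genes in such windows, B19 12.6% and B22 11.7%, against 0.976% in B17 and 1.39% in B8. The strongest windows were 1.15 on chromosome 9 in B23, -0.94 on chromosome 13 in B11, -0.86 on chromosome 5 in B19 and -0.83 on the long arm of chromosome 11 in B18. Opposite directions occurred on chromosome 13, where the median over all 157 genes was -0.74 in B11 and 0.50 in B12. On chromosome 18, which carries SMAD4, the median over 137 genes was 0.35 in B20, the clone with the highest SMAD4 level, and between -0.14 and 0.09 in the other 13 clones. On the same chromosome the genes nearest the start of the short arm were high in B22 (window 0.45) and low in B18 (-0.53). They included TYMS, thymidylate synthase, at 477 CPM in B22 and 104 CPM in B18 against a median of 196, and the kinetochore gene NDC80 at 148 CPM in B22 and 36.2 CPM in B18. DNA copy number was not measured in these samples.

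**Figure D5:**
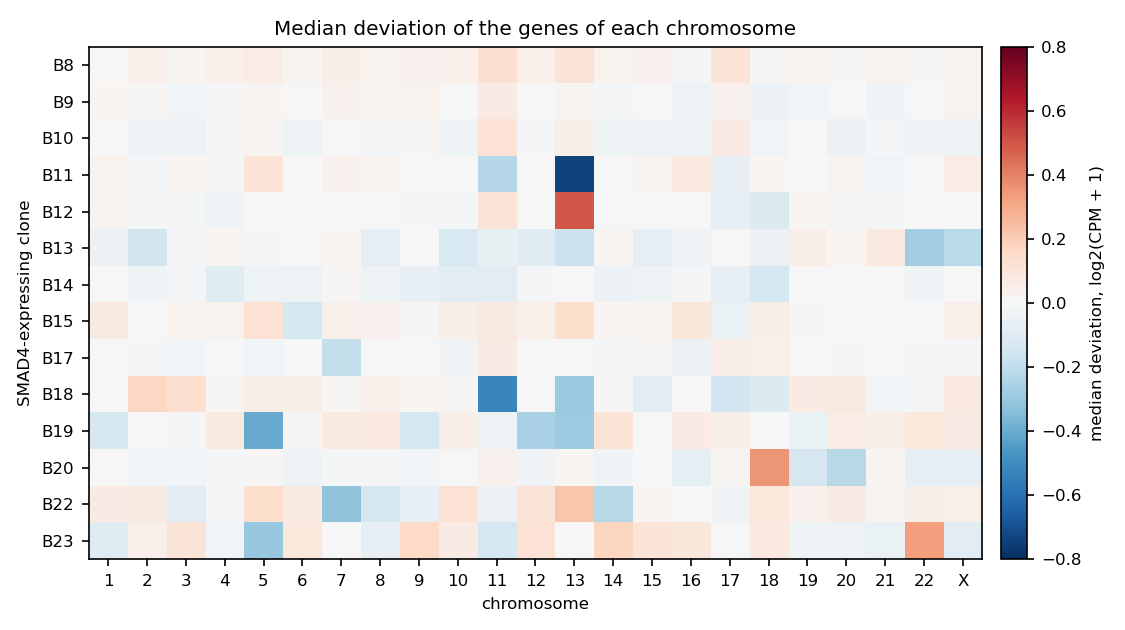
Median deviation from the median clone in log2(CPM + 1) over the tested genes of each chromosome (columns) in each clone (rows), red above and blue under the median. Chromosome 13 in B11 and B12, 11 in B18, 5 in B19, 18 in B20, 7 in B22 and 22 in B23 show the deepest colors of their clones, and most other cells are near 0.

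These layers met in part. Some of the groups of genes that moved together held many genes of 1 chromosome. In a group low in B11 (-1.75) 7 of 16 genes lay on chromosome 13, and in the KLHL9 group of B23 (1.93) 7 of 14 lay on chromosome 9. In a group with NPM1, HMMR and TYMS that was high in B22 (1.33) 7 of 14 lay on chromosome 5. The group of MT-CO2 held 7 mitochondrially encoded genes among 8, and that of HOXB8 held 4 of 10 on chromosome 17. On chromosome 11 lay 5 of 16 genes of a group low in B18 (-2.22) and 8 of 38 of the PAX2 group low in B22. Of all 9527 tested genes with a position 157 lie on chromosome 13, 376 on chromosome 9 and 436 on chromosome 5. Chromosome 11 holds 583 and chromosome 17 holds 592. The largest group had at most 5 of 41 genes on 1 chromosome. For the KLHL9 group the median r dropped from 0.71 to 0.23 without B23, for the chromosome 13 group from 0.74 to 0.52 without B11 and for the NPM1 group from 0.73 to 0.61 without B22. When the running median of the neighbors was taken from each gene, 765 of the 907 variable genes with a position still had an SD of 0.5 or more, and 173 of 181 strongly variable genes still had an SD of 1 or more. The median SD over all placed genes was 0.26 before and 0.22 after.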

How the data were processed

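One mRNA library was sequenced for each of 26 SCDCLs. Reads were quantified by the authors with kallisto 0.46.1 (GRCh38, per the submitters' processing notes), summed to genes and deposited as TPM, estimated counts and 30 resampled estimated counts per library for 41078 genes. The deposited estimated counts were built by the authors from TPM, mean transcript length and each library's total, so they carry a length correction. The resampled counts are not length-scaled and were used only for their relative spread. Another 386 columns (lengths, and resamples of the libraries without SMAD4) were not used. The members, gene lists and rules for named genes were chosen with earlier results of these data known, and no test was made, since the same values chose the genes.

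CPM used TMM factors over all 26 libraries (edgeR 4.0.16 in R 4.3.3), and a pseudocount of 1 was added before log2. Read spread was the root mean square over clones of the SD over the resampled columns. Deviations were taken from the median of the 14 clones. Gene names and positions came from GENCODE 44 (GRCh38) by Ensembl identifier, and 414 of 9955 tested genes had no entry there. Variable genes were clustered with scipy 1.17.1 in Python 3.11.15 (numpy 2.4.6, pandas 2.3.3), and plots used matplotlib 3.10.9. The calls of variable genes and of genes high in a single clone, the windows and the clustering were tested on simulated data. The simulated resamples held counting error only. Runs of neighbors, genes low in a single clone, on and off genes, the removal of the running median and the promoter counts were not tested in this way. The named genes were the 4 markers, the 25 genes of largest SD, genes high or low in a single clone, the 5 leading genes of a group, genes of the 6 longest runs, the 5 variable genes most like PSAP, VIM or L1CAM, variable members of the gene lists, and the 3 genes on each side of an SD of 1. Further group members and genes of shorter runs, and CCNA2, MGMT and DCK, were picked after their values were seen. Alternatives were other scalings (including DESeq2 1.42.0 size factors), pseudocounts, filters, deposited TPM, the median absolute deviation, Spearman's correlation, other tree heights and window sizes, and leaving out each library. Counting error per library is small at these totals, but variation between repeat cultures is unknown. Identifiers of alternative haplotypes share reads with the primary gene and were not described. They do count in the totals, the group sizes and the median r of groups. Of 941 variable genes 940 entered the clustering, as the Y-linked one was left out. Results that need some items withheld from this text are not reported here.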

Additional observations from a re-analysis of the deposited data

How the results depend on the processing

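The 14 clones give 1 value each and no repeat of a clone, so limits come from the settings. Scaling changed little, since TMM over the 14 clones, DESeq2 size factors and the library total gave 936 to 953 variable genes against 941. With a mean of 1 CPM or more there were 2079 variable, 378 strongly variable and 30 genes high in a single clone. With a mean of 30 CPM or more the counts were 473 and 79, with 1 gene high and 11 low in a single clone. With the highest clone at 10 CPM or more they were 1475 and 357, with 28 genes high in a single clone. A pseudocount of 5 left 91 strongly variable genes and 4 low in a single clone, and one of 0.1 gave 50 low in a single clone. The number of runs of neighbors was 225 at a deviation of 0.58, 7 for runs of 4 genes and 51 with a mean of 1 CPM or more, and windows of 21 genes gave 96 pairs of a clone and a chromosome. Counts of runs therefore depend on the cutoff.

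Leaving out each clone in turn gave 870 to 994 variable genes, 168 to 198 strongly variable genes, 6 to 10 genes high and 13 to 21 low in a single clone, and 29 to 45 groups. The SD of L1CAM was then 0.571 to 0.673, of PSAP 0.386 to 0.453, of SMAD4 0.171 to 0.245 and of VIM 0.194 to 0.222. Of the 941 variable genes 827 were still variable without B18, 831 without B22, 860 without B23 and 645 without all 3. Settings added after the data were seen gave 748 variable genes in the 7 clones labelled Panc-1 and 1215 in the 7 labelled BxPC3, 907 among genes with a position, 789 after the running median was taken away and 918 from the mean of the resampled counts. No paired analysis was possible because the result comes from no test and each replicate number marks a different clone.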

Other observations

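Transcripts encoded by mitochondrial DNA, which code for subunits of the respiratory chain, differed between clones as a block. B9 had the lowest level of them, with 12 of 13 tested genes 0.5 or more under the median clone on the log2 scale, against 5.53% of all tested genes, and a sum of 4059 CPM against 9474 to 18567 CPM in the other 13 clones. MT-CO1, a subunit of cytochrome c oxidase, was at 892 CPM in B9 and at 2546 to 5410 CPM elsewhere. B17, B19 and B20 were at the upper end, with sums of 18567, 16894 and 18170 CPM.

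Of 26 tested genes of cell division 1 was called variable (TYMS, SD 0.57), against 9.45% of all tested genes. Their median SD was 0.33, against 0.26 over all tested genes, and they moved together in some clones. In B14 21 of the 26 lay 0.5 or more under the median clone and in B13 16 did, with median deviations of -0.65 and -0.58, while in B22 12 lay 0.5 or more above it (median deviation 0.49). Over all tested genes the shares were 5.59% in B14 and 5.64% in B13 under it and 7.3% in B22 above it. Gemcitabine handling genes, which transport, activate or inactivate the drug or supply competing nucleotides, had a median SD of 0.30 against 0.26 over all tested genes. Of 15 tested, 2 were variable (13.3%, against 9.45% of all tested genes), TYMS and the transporter SLC29A2. SLC29A2 ranged from 23.5 CPM in B22 and 28.1 CPM in B23 to 73.1 CPM in B20. DCK, the kinase that activates gemcitabine, ranged from 27.9 CPM in B14 to 51.1 CPM in B23 with an SD of 0.21. The response of the single clones to gemcitabine was not analysed here.

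Several other lists moved in some clones. Targets of NRF2, the transcription factor of the oxidative stress response, were 0.5 or more above the median clone for 8 of 12 tested genes in B9 (median deviation 0.68) and 6 of 12 in B22 (0.37). Inflammatory and NFkB-linked genes were so for 7 of 13 in B22 (0.52) and 6 of 13 in B19 (0.47). The shares of all tested genes above it were 5.79% in B9, 7.3% in B22 and 4.33% in B19. Lysosomal genes, PSAP among them, lay 0.5 or more under the median clone for 13 of 24 in B22 (-0.55), against 12% of all tested genes. All 4 tested replication histone genes, whose transcripts mostly lack poly(A) tails, lay that far under it in B18 (-1.12) and 3 of 4 in B20 (-0.67), whereas all 4 lay 0.5 or more above it in B15 (0.75) and B19 (0.71). Over all tested genes the shares were 10.2% in B18 and 7.15% in B20 under it and 2.97% in B15 and 4.33% in B19 above it. Of 12 tested interferon-stimulated genes 5 were variable (41.7%, against 9.45% of all tested genes), among them IFITM1, an inhibitor of viral entry, from 8.46 CPM in B22 to 110 CPM in B13.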
